A study of Mus musculus with 16 samples.

Results

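The genes described here are 7 that bind, sense or move zinc and related metals in cells: the metallothioneins Mt1 and Mt2, the metal-sensing transcription factor Mtf1, the exporters Slc30a1 and Slc30a10, and the importers Slc39a10 and Slc39a14. They were listed by name, with earlier results of these data known, and are 7 of the 55487 genes in the count table. All 7 passed the filter on low counts. Whole liver RNA was sequenced from wild type C57BL/6J mice 12 weeks of age. The 16 libraries fall into 4 groups of 4: mice kept in room air, and mice given sustained hypoxia, intermittent hypoxia, or overlap hypoxia, which the series title describes as intermittent and sustained hypoxia combined. No group carried a transgene or a deletion by its labels. Neither oxygen levels nor exposure times are stated in the sources used here. The labels also do not say whether libraries came from separate animals, so each p-value measures only the spread among these libraries.

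Metallothioneins are small cysteine-rich proteins that bind zinc, copper and cadmium. The liver makes them in large amounts when free zinc rises, through binding of MTF1 to metal response elements in their promoters, and also under glucocorticoids and inflammatory cytokines. Slc30a1 encodes ZnT1, which carries zinc out of the cell and is another MTF1 target. Slc30a10 belongs to the same family by sequence and is best known for exporting manganese. Slc39a14 encodes ZIP14, which takes up zinc, manganese and non-transferrin iron in hepatocytes and responds to interleukin-6, and Slc39a10 encodes the zinc importer ZIP10. Mtf1 is thus a regulator and not a transporter, and zinc is not the main cargo of each transporter in the list.

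Promoter windows of 250 bases before to 50 bases after the start site were taken from RefSeq (GRCm38.p6) for 6 of the 7 genes. Those of Mt1 (chr8:94178839-94179138, plus strand), Mt2 (chr8:94172368-94172667, plus strand) and Slc30a1 (chr1:191906531-191906830, plus strand) are shown. These are the classical MTF1 targets of the list, and only the first 2 of them were called in a comparison below. Capitals mark matches on either strand to the metal response element core, TGCACNC or TGCGCNC.
Mt1: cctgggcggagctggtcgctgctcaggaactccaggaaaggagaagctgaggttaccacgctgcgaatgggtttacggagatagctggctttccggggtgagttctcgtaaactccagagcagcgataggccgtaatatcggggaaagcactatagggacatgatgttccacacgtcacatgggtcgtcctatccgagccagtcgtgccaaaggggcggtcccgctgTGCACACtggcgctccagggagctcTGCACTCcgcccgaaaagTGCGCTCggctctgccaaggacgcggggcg
Mt2: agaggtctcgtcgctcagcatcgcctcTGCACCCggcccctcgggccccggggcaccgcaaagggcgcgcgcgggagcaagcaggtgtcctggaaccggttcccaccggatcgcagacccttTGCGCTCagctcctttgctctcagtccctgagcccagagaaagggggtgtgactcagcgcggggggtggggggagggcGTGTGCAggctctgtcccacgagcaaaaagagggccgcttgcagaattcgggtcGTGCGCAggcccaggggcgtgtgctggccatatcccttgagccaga
Slc30a1: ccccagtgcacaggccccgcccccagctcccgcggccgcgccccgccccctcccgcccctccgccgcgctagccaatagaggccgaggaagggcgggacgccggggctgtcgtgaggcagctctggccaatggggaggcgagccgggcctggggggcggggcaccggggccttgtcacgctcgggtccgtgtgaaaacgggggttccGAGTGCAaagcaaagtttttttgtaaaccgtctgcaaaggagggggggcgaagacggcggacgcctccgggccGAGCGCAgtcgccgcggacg
Mt1 held 3 such matches, from 23 bases upstream to 20 bases downstream of the RefSeq start, and Mt2 held 4, from 223 bases upstream to 4 bases downstream. The Slc30a1 window held 2 and that of Slc30a10 held 3, of which 2 lie across each other on opposite strands, while the windows of Mtf1 and Slc39a10 held 0. Of all 32851 windows of this length, 25.7% held at least 1 match, 7.11% at least 2, 1.97% at least 3 and 0.517% at least 4. The core of the hypoxia response element, ACGTG or GCGTG, was found 2 times in Mt1 and 2 times in Mt2, and 20.6% of all windows held at least 2. Only windows at these RefSeq starts were searched, so matches outside them are not counted. A match describes the letters of a window and does not show binding.

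Library totals ran from 10940253 to 64789587 counts, the lowest being overlap hypoxia replicate 3. Ribosomal RNA genes took 18.5% to 34.8% of counts in the intermittent hypoxia libraries and 1.55% to 16.8% in the other 12, so for every comparison with intermittent hypoxia this share and the exposure cannot be told apart. Mitochondrial genome genes took 6.23% to 11.7% in intermittent hypoxia, 1.18% to 2.75% in room air, 1.435% to 1.73% in sustained and 2.54% to 7.17% in overlap hypoxia. Between intermittent hypoxia and room air or sustained hypoxia, that share too cannot be told apart from the exposure. The tissue label was checked because the protocol text names retina: summed hepatocyte markers stood at 58580 to 91650 CPM (counts scaled to library size by edgeR's cpm function with TMM factors) and the 8 photoreceptor markers at 10.8 CPM or less, with Rcvrn at 0 in every group.

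Mt1 (ENSMUSG00000031765, chr8:94179082-94180327, plus strand, GRCm38) was the most abundant of the 7 transcripts. In room air its libraries stood at 260.2, 379, 248 and 216 CPM. Under sustained hypoxia they stood at 102, 96.2, 35.6 and 205 CPM, all below the lowest room air library. Under intermittent hypoxia the values were 412, 381, 314.6 and 574 CPM, reaching higher than room air with an overlap between the groups. Under overlap hypoxia they were 107, 43.5, 163 and 132 CPM, again all below room air. The mean was 276 ± 71.2 CPM in room air and 420.2 ± 110 in intermittent hypoxia, against 110 ± 70.4 in sustained and 111 ± 50.8 in overlap hypoxia (SD, n = 4 each).

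Mt2 (ENSMUSG00000031762, chr8:94172664-94173568, plus strand) ends 5513 bases before Mt1 starts. Its room air libraries held 86.5, 106, 80.6 and 47.0 CPM. The sustained hypoxia libraries held 30.4, 22.4, 4.23 and 23.3 CPM, and the overlap hypoxia libraries 18.1, 5.89, 39.1 and 11.3 CPM; none of these 8 reached the lowest room air value. With intermittent hypoxia the libraries held 135, 98.4, 90.2 and 108 CPM, overlapping with room air. Mt2 means were 79.96 ± 24.4 CPM in room air, 108 ± 19.6 with intermittent, 20.1 ± 11.2 with sustained and 18.6 ± 14.5 with overlap hypoxia (SD, n = 4 each). Of the exon bases of Mt2, 73.5% lie across from exons of the antisense gene Gm45774, and the counting is not stated to use strand. Gm45774 held 0 to 330 counts a library against 159 to 6298 for Mt2, and adding its counts to Mt2 changed no call of Mt2.

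**Figure D1:**
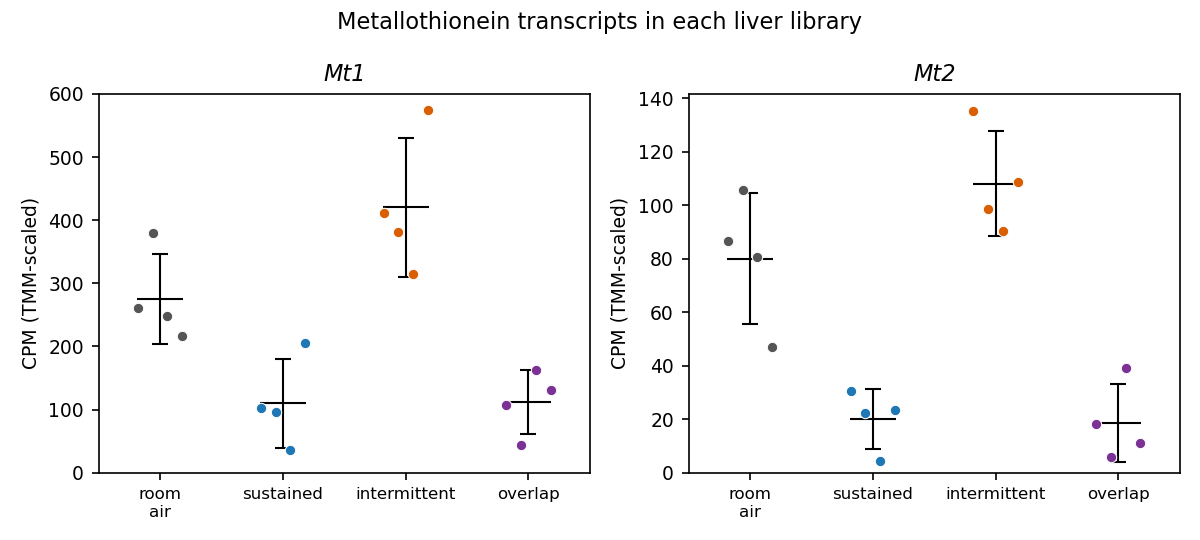
Levels of Mt1 (left) and Mt2 (right) in CPM on the vertical axis for the 4 groups. Points are libraries, the horizontal line is the mean and the bars are SD; for both genes all sustained and overlap hypoxia libraries lie below all room air and intermittent hypoxia libraries.

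The same libraries were then compared with edgeR's quasi-likelihood test, with Benjamini-Hochberg adjustment over all 14553 genes tested and calls at an adjusted p under 0.05. Both metallothioneins were lower in sustained and in overlap hypoxia than in intermittent hypoxia. Mt1 fell by 1.94 on the log2 scale in sustained against intermittent hypoxia (SE 0.478, adjusted p = 0.00659), a 3.83-fold lower level. Mt2 fell by 2.42 (SE 0.599, adjusted p = 0.00704), a 5.37-fold lower level. In that comparison 3 of the 7 genes were called, all lower, where 38.4% of all tested genes were called and 19.5% were called lower. The same 3 had all sustained hypoxia libraries below all intermittent ones, as did 17.7% of tested genes. Both calls held without each of the 16 libraries in turn, but not with the ribosomal RNA share as a covariate, where Mt1 stood at -1.86 and Mt2 at -2.45 with SEs of 1.06 and 1.40 and adjusted p of 0.557 and 0.562.

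Overlap hypoxia against intermittent hypoxia gave differences of the same order. Mt1 fell by 1.92 (SE 0.478, edgeR adjusted p = 0.0364), which is 3.78-fold lower, and Mt2 by 2.57 (SE 0.609, adjusted p = 0.0319), which is 5.96-fold lower. These were the 2 called genes of the 7, with 6.15% of all tested genes called and 2.95% called lower. No library of either gene overlapped between the groups, which was so for 5.68% of all tested genes in the lower direction. The Mt1 call was lost in 9 of 16 fits that left out 1 library and the Mt2 call in 6 of 16, with values between -2.15 and -1.64 for Mt1 and between -3.19 and -2.26 for Mt2. Both calls were lost without intermittent hypoxia replicate 1, 2 or 3 or overlap hypoxia replicate 1, 2 or 4, and that of Mt1 also without room air replicate 3, sustained hypoxia replicate 1 or intermittent hypoxia replicate 4. Both calls were also lost with the ribosomal RNA covariate, at -1.87 and -2.59 (adjusted p = 0.542 and 0.536), and with only these 2 groups fitted, at -1.92 and -2.57 (adjusted p = 0.0723 and 0.0910).

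Against room air neither metallothionein passed the test in any exposure. For sustained hypoxia the log2 fold change of Mt1 was -1.33 (SE 0.470, adjusted p = 0.307) and that of Mt2 -1.99 (SE 0.590, adjusted p = 0.231). None of the 7 genes was called, with 0.0481% of all genes called by edgeR and 1672 genes at an unadjusted p under 0.05. Mt1 and Mt2 were the 2 members whose sustained hypoxia libraries all lay below room air, as did those of 4.32% of all tested genes. For overlap hypoxia the values were -1.31 for Mt1 (SE 0.470, adjusted p = 0.115) and -2.14 for Mt2 (SE 0.600, adjusted p = 0.0537). Again 0 of 7 genes were called, with 6.29% of all tested genes called and 3320 at an unadjusted p under 0.05. Mt1, Mt2 and Mtf1 had all overlap hypoxia libraries below room air, as did 7.14% of all tested genes. DESeq2 called Mt2 in both comparisons, at adjusted p of 0.0411 for sustained and 0.00643 for overlap hypoxia, and Mt1 in overlap hypoxia at 0.0344. The edgeR test called Mt2 in overlap hypoxia without overlap hypoxia replicate 3 (-2.76, adjusted p = 0.0419) or without sustained hypoxia replicate 3 (-2.15, adjusted p = 0.0257).

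Intermittent hypoxia against room air gave 0.61 for Mt1 (SE 0.463, edgeR adjusted p = 0.332) and 0.43 for Mt2 (SE 0.569, adjusted p = 0.586). Mt1 was called there when only these 2 groups were fitted, at 0.63 (adjusted p = 0.0300). Overlap and sustained hypoxia differed by 0.02 in Mt1 (SE 0.463) and by -0.15 in Mt2 (SE 0.580), with adjusted p of 0.988 and 0.918. With SEs of this size, equal levels are not shown. Of the 7 genes 0 were called between overlap and sustained hypoxia, where 0.165% of all genes were called and 2978 had an unadjusted p under 0.05. The departure of overlap hypoxia from the sum of both single exposures on the log2 scale was -0.59 for Mt1 (SE 0.654) and -0.59 for Mt2 (SE 0.812). It passed the test in 0 of 7 genes, with 0.454% of all genes called and 2544 at an unadjusted p under 0.05.

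Both metallothionein transcripts are short, at 549 and 511 bases for the principal transcript. The 1708 tested genes with at most 1500 bases of exons had a median of 0.32 in sustained against intermittent hypoxia, beside -1.94 for Mt1 and -2.42 for Mt2. With an offset for gene length in each library, Mt1 stood at -2.24 and Mt2 at -2.73 in that comparison, with edgeR adjusted p of 0.00434 and 0.00705. The median of the short genes was 0.11 in overlap against intermittent hypoxia and 0.05 in sustained hypoxia against room air. In overlap hypoxia against room air it was -0.12, beside -1.31 for Mt1 and -2.14 for Mt2. In intermittent hypoxia against room air it was -0.21, as it was in overlap against sustained hypoxia. The part of transcript length in the metallothionein values was not tested.

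Mt1 and Mt2 moved together from library to library. Their log2 CPM values over the 16 libraries gave Pearson's r = 0.942 and Spearman's rho = 0.953, each with a permutation p of 1e-05, the smallest that 100000 resamples can give, and 0.00021 after adjustment over 21 pairs of the 7 genes. Without the 2 libraries farthest from the median of Mt1, r was 0.875. On deviations from the group means r was 0.825, with a permutation p of 0.00605 and 0.127 after adjustment over the same 21 pairs. Mt1 with Mt2 was the 1 pair of the 21 under an adjusted Pearson p of 0.05, and within groups 0 pairs were. Sustained hypoxia replicate 3 and overlap hypoxia replicate 2 held the lowest values of both genes. The next pair by r, Mt1 with Slc39a14, reached r = 0.66 (permutation p = 0.00535, adjusted 0.0562) and rho = 0.715 (permutation p = 0.00248, adjusted 0.026), with r = 0.47 without the 2 farthest libraries and 0.435 within groups.

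**Figure D2:**
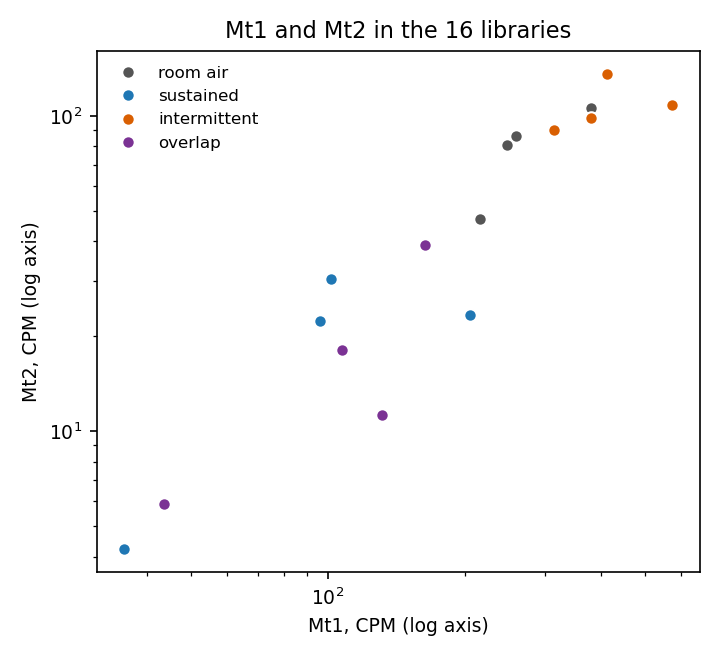
Mt2 against Mt1 in CPM, both on log axes, with 1 point for each of the 16 libraries coloured by group. The points follow a common line from sustained hypoxia replicate 3 (35.6 and 4.23 CPM) up to the intermittent hypoxia libraries.

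The ratio of Mt1 to Mt2 per kilobase of principal transcript was not constant. It was 3.32 ± 0.682 in room air and 3.65 ± 0.903 in intermittent hypoxia, against 5.79 ± 2.60 in sustained and 6.78 ± 2.97 in overlap hypoxia (SD, n = 4 each). The ranges overlapped: room air libraries lay between 2.80 and 4.28, sustained hypoxia libraries between 3.11 and 8.20, and overlap hypoxia libraries between 3.89 and 10.9. Spread between libraries was wider where the level was low, with a coefficient of variation for Mt2 of 78.2% in overlap and 55.6% in sustained hypoxia against 30.6% in room air and 18.1% in intermittent hypoxia.

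Mtf1 (ENSMUSG00000028890, chr4:124802104-124849800, plus strand), whose product switches on both metallothionein genes, stood between 3.37 and 6.51 CPM in all 16 libraries. Its room air libraries held 4.88, 4.97, 4.76 and 4.95 CPM, and the overlap hypoxia libraries 4.52, 4.31, 4.28 and 4.01 CPM. Those 4 all lay below room air, by a small margin, at a log2 fold change of -0.19 (SE 0.180, edgeR adjusted p = 0.576). In sustained hypoxia the libraries held 4.75, 4.004, 5.22 and 4.90 CPM and overlapped with room air, at -0.05 (SE 0.177, adjusted p = 0.945). Intermittent hypoxia gave 3.37, 4.54, 6.51 and 5.03 CPM, spread on both sides of room air, at -0.01 (SE 0.178, adjusted p = 0.959) and at 0.07 with upper-quartile scaling. In its last 721 exon bases Mtf1 lies across from 1110065P20Rik, which held 13.2 to 34.4 CPM. Reads of both cannot be told apart there if strand was not used.

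Among the exporters, Slc30a1 (ENSMUSG00000037434, chr1:191906767-191913247, plus strand) was not called in any comparison. Its libraries held 18.4, 16.3, 13.1 and 10.97 CPM in room air and 12.4, 12.6, 15.2 and 11.4 CPM in sustained hypoxia. They held 15.8, 10.4, 10.5 and 12.8 CPM in intermittent and 12.0, 11.5, 16.3 and 11.6 CPM in overlap hypoxia. Each exposed group overlapped with room air. The log2 fold changes were -0.19 (SE 0.177, edgeR adjusted p = 0.753), -0.24 (SE 0.178, adjusted p = 0.298) and -0.20 (SE 0.179, adjusted p = 0.545) for sustained, for intermittent and for overlap hypoxia. Against intermittent hypoxia, where Mt1 and Mt2 fell, Slc30a1 stood at 0.05 in sustained (SE 0.178) and 0.04 in overlap hypoxia (SE 0.179). The edgeR adjusted p values were 0.837 and 0.916. Over the 16 libraries its Pearson's r was 0.0631 with Mt1 and 0.178 with Mt2.

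Slc30a10 (ENSMUSG00000026614, chr1:185454848-185468762, plus strand), the manganese exporter, had lower means in each exposure than in room air without passing the test. Room air libraries held 10.8, 9.98, 8.49 and 3.67 CPM, replicate 4 being the lowest. Sustained hypoxia libraries held 2.99, 3.79, 4.23 and 5.94 CPM, intermittent ones 6.91, 5.32, 3.54 and 3.57 CPM, and overlap ones 7.08, 3.87, 6.03 and 6.00 CPM. Every exposed library was below the 3 high room air libraries, and the groups overlapped through replicate 4. The log2 fold change was -0.96 in sustained hypoxia (SE 0.304, edgeR adjusted p = 0.230), -0.77 in intermittent hypoxia (SE 0.305, adjusted p = 0.0554) and -0.52 in overlap hypoxia (SE 0.304, adjusted p = 0.324). Without room air replicate 4 the intermittent hypoxia value was -1.01 and was called (adjusted p = 0.00696), as it also was without sustained hypoxia replicate 4 (-0.77, 0.0485), intermittent hypoxia replicate 1 (-1.01, 0.0209) or overlap hypoxia replicate 2 (-0.77, 0.0492). Its departure from additivity was the largest of the list at 1.21 (SE 0.432, adjusted p = 0.167).

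Slc39a14 (ENSMUSG00000022094, chr14:70303469-70351425, minus strand), the importer of zinc, manganese and iron, was the 1 gene of the 7 called against room air. In room air it held 50.5, 56.3, 56.1 and 57.1 CPM. Intermittent hypoxia libraries held 63.4, 67.1, 95.4 and 67.2 CPM, all above room air. It rose there by 0.41 on the log2 scale (SE 0.159, edgeR adjusted p = 0.0473), which is 1.33-fold higher. This was 1 called gene of 7, where 37.1% of all tested genes were called, 18.9% were called higher and 17.4% had all libraries above room air. Between 2 of the exposures, Slc39a14 fell by 0.63 in sustained against intermittent hypoxia (SE 0.160, adjusted p = 0.00429), which is 1.55-fold lower. Sustained hypoxia libraries held 48.2, 45.6, 45.0 and 50.5 CPM and overlapped with room air by the lowest room air library, at -0.22 (SE 0.159, adjusted p = 0.660). Overlap hypoxia libraries were spread widely, at 54.1, 39.4, 62.8 and 72.4 CPM, with 0.05 against room air (SE 0.159, adjusted p = 0.884) and -0.36 against intermittent hypoxia (SE 0.159, adjusted p = 0.163).

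The rise of Slc39a14 in intermittent hypoxia depended on the libraries and on the model. Without intermittent hypoxia replicate 3 it was 0.27 (adjusted p = 0.204), and the call was lost in 13 of 16 fits that left out 1 library, remaining without intermittent hypoxia replicate 1, overlap hypoxia replicate 2 or overlap hypoxia replicate 4. With an offset for gene length it was 0.04 (adjusted p = 0.881), and with the ribosomal RNA share as a covariate it turned to -0.33 (adjusted p = 0.538). The fall against intermittent hypoxia became -0.16 (adjusted p = 0.480) with the length offset and turned to 0.21 (adjusted p = 0.815) with the covariate.

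Slc39a10 (ENSMUSG00000025986, chr1:46807544-46892852, minus strand), a zinc importer, had the lowest counts of the 7 genes, 4 to 68 a library. Room air libraries held 0.461, 0.489, 1.00 and 0.576 CPM and sustained hypoxia libraries 0.571, 0.760, 0.320 and 0.816 CPM. Intermittent hypoxia libraries held 0.934, 1.34, 0.524 and 1.17 CPM, and overlap hypoxia libraries 0.868, 0.876, 0.350 and 1.29 CPM. All groups overlapped. Against room air the log2 values were -0.03 (SE 0.423), 0.66 (SE 0.423) and 0.47 (SE 0.425) for sustained, intermittent and overlap hypoxia, with edgeR adjusted p of 0.988, 0.235 and 0.558.

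**Figure D3:**
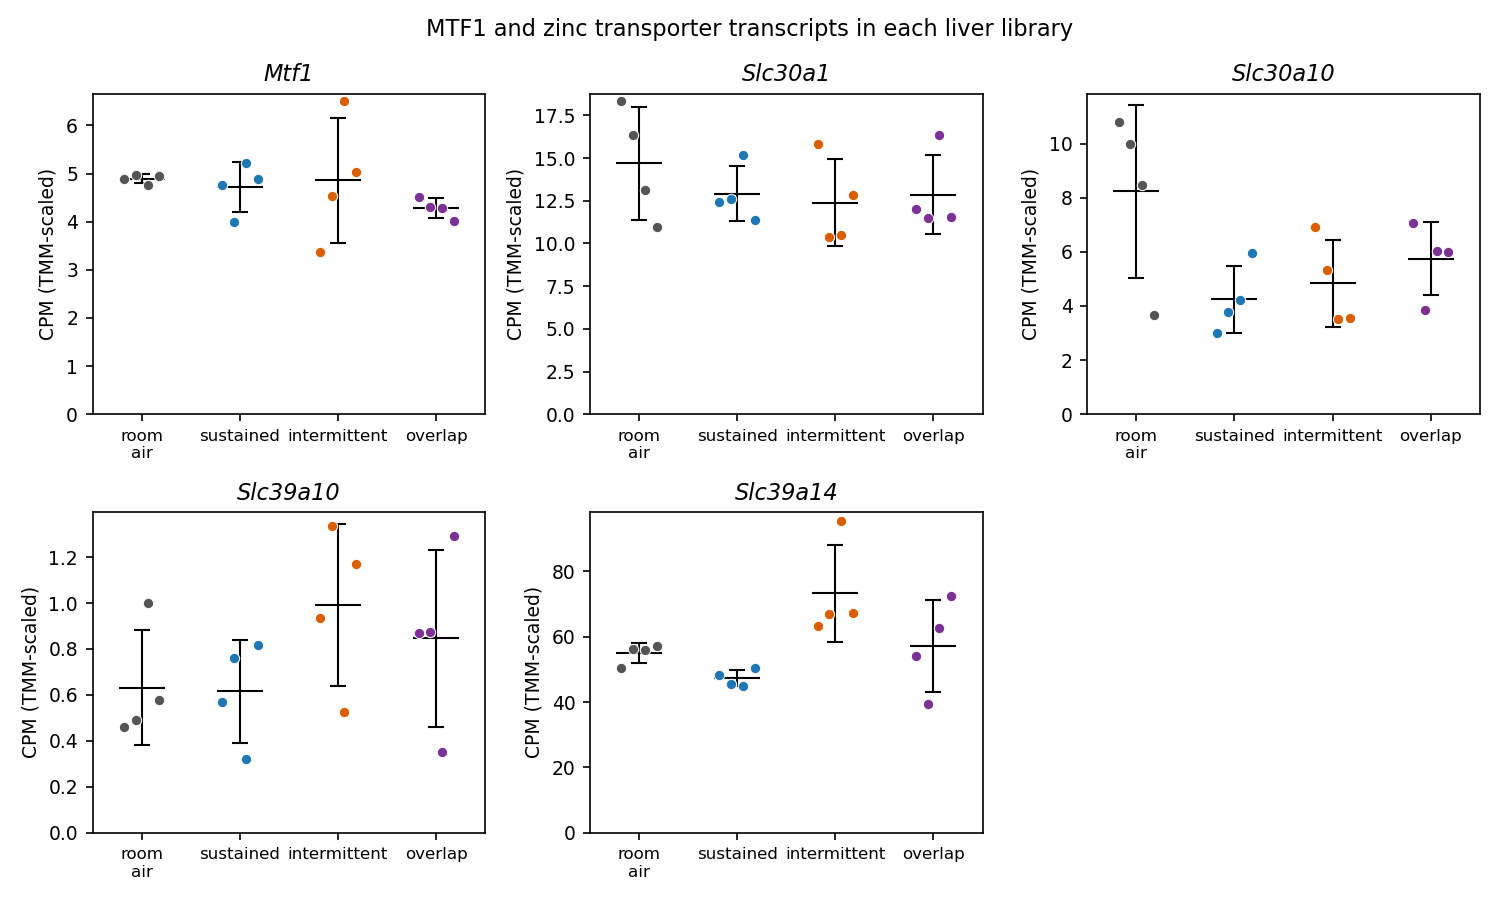
Levels of Mtf1, Slc30a1, Slc30a10, Slc39a10 and Slc39a14 in CPM on the vertical axis, each panel with its own scale from 0, for the 4 groups. Points are libraries, lines are means and bars SD; of these panels only Slc39a14 shows a group, intermittent hypoxia at 63.4 to 95.4 CPM, wholly above room air.

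**Figure D4:**
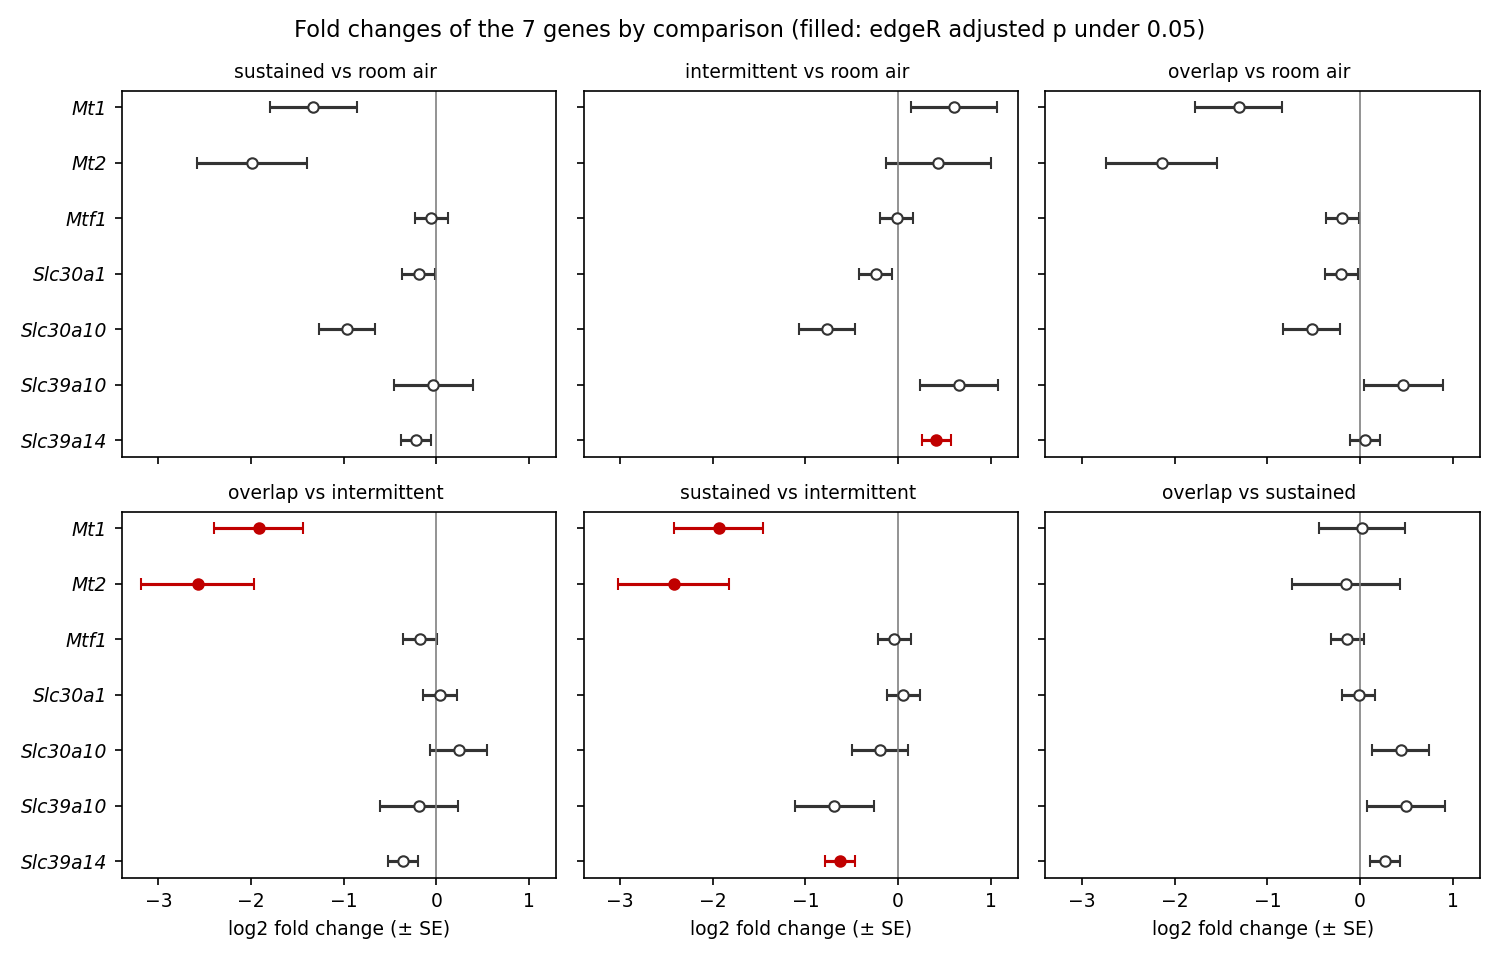
Log2 fold change of the 7 genes (points) with SE (bars) from the edgeR fit in 6 comparisons; filled red points have an adjusted p under 0.05. The filled points are Slc39a14 in intermittent hypoxia against room air, Mt1 and Mt2 in overlap against intermittent hypoxia, and Mt1, Mt2 and Slc39a14 in sustained against intermittent hypoxia.

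Set in order per kilobase of principal transcript, the level ran in each group from Mt1 through Mt2, Slc39a14, Slc30a1, Slc30a10 and Mtf1 to Slc39a10. In room air this spanned 503 ± 130 CPM per kilobase for Mt1, 157 ± 47.8 for Mt2, 11.2 ± 0.617 for Slc39a14, 2.80 ± 0.628 for Slc30a1 and 0.115 ± 0.0457 for Slc39a10 (SD, n = 4). The ranges of Slc30a10 and Mtf1 overlapped in room air, sustained and intermittent hypoxia, so their order there is within the spread. Mt2 and Slc39a14 were apart in room air and in intermittent hypoxia and overlapped in sustained hypoxia, at 39.3 ± 21.8 against 9.61 ± 0.516, and in overlap hypoxia, at 36.4 ± 28.4 against 11.6 ± 2.85 CPM per kilobase.

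Of 21 other zinc transporter genes, 17 passed the filter on low counts. In sustained and in overlap hypoxia against room air 0 of the 17 were called, beside 0.0481% and 6.29% of all tested genes. In intermittent hypoxia 3 were higher, 5 lower and 9 did not pass, with a median of -0.30 beside 0.03 for all genes tested; 8 of 17 called is near the background of this comparison, where 37.1% of all tested genes were called. The plasma membrane importer Slc39a2 rose by 2.54 (SE 0.735, edgeR adjusted p = 0.0102) at a low level, from 0 to 0.192 CPM in room air libraries to 0.437 to 0.902 CPM. Slc39a8 (ZIP8), the closest relative of Slc39a14, fell by 0.75 (SE 0.197, adjusted p = 0.00534), from 15.5 ± 1.87 to 9.16 ± 3.57 CPM (SD, n = 4). Slc39a1 fell by 0.56 (SE 0.121, adjusted p = 0.00127), and Slc39a11 by 0.66 (SE 0.139, adjusted p = 0.00108). Slc39a11 was also the 1 gene of the 17 called in overlap against intermittent hypoxia, at 0.53 (SE 0.140, adjusted p = 0.0321), beside 6.15% of all tested genes. In sustained against intermittent hypoxia 3 of the 17 were higher and 2 lower, beside 38.4% of all tested genes called.

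**Figure D5:**
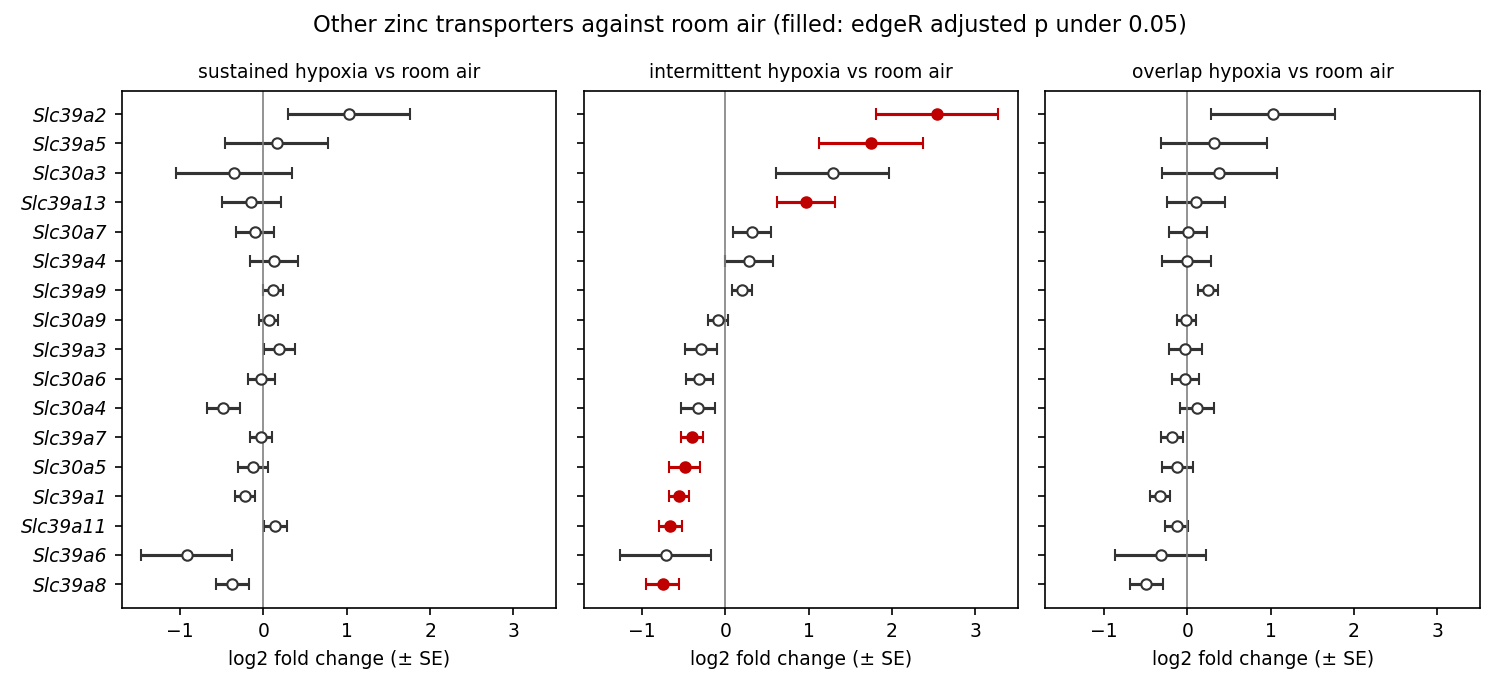
Log2 fold change against room air (points) with SE (bars) for 17 other zinc transporter genes in the 3 exposures, from the edgeR fit; filled red points have an adjusted p under 0.05. The 8 filled points are all in intermittent hypoxia, 3 above and 5 below 0.

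Mt3 and Mt4, the metallothioneins of brain and of squamous epithelium, were too low to test, with a summed level of at most 0.0973 CPM. Of 6 other genes reported to respond to MTF1, 5 were tested. In sustained and in overlap hypoxia against room air 0 were called, beside 0.0481% and 6.29% of all tested genes. In intermittent hypoxia 2 were lower, beside 37.1% of all tested genes called, 18.9% called higher and only the rest of the 37.1% called lower. These 2 were the selenoprotein genes Selenoh (-1.24, SE 0.218, edgeR adjusted p = 0.000248) and Selenow (-0.39, SE 0.140, adjusted p = 0.0359). In sustained against intermittent hypoxia, where both metallothioneins fell, 2 of the 5 were higher and 1 lower. Of all tested genes 38.4% were called there, 19.5% called lower and the rest of the 38.4% called higher. Selenoh rose by 1.36 (SE 0.219, edgeR adjusted p = 0.000126) and Csrp1 by 0.97 (SE 0.281, adjusted p = 0.0104). Gclc, which makes glutathione, fell by 0.62 (SE 0.226, adjusted p = 0.0372).

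Metallothioneins also bind copper, and 13 copper handling genes were read beside them. None of the 13 was called in sustained or overlap hypoxia against room air, beside 0.0481% and 6.29% of all tested genes. In intermittent hypoxia 5 were lower and 0 higher, with a median of -0.31 beside 0.03 for all genes. Of all tested genes 37.1% were called there, 18.9% called higher and only the rest of the 37.1% called lower. Among the 5 were the copper importer Slc31a1 at -0.35 (SE 0.120, edgeR adjusted p = 0.0269) and Cutc at -1.15 (SE 0.183, adjusted p = 9.62e-05). In sustained against intermittent hypoxia 5 were higher and 0 lower. Of all tested genes 38.4% were called in that comparison, 19.5% called lower and only the rest of the 38.4% called higher.

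Metallothioneins also respond to glucocorticoids and to interleukin-6, and lists for both were read beside them. Of 10 glucocorticoid-induced genes, 0 were called in sustained hypoxia against room air (median -0.32), beside 0.0481% of all tested genes. In intermittent hypoxia 2 were called, beside 37.1% of all tested genes. Both were higher: the clock gene Per1 at 1.63 (SE 0.283, edgeR adjusted p = 0.000327) and Klf9 at 0.56 (SE 0.1997, adjusted p = 0.0336). In sustained against intermittent hypoxia 5 of the 10 fell and 0 rose, beside 38.4% of all tested genes called and 19.5% called lower, with a median of -1.05 beside -0.03 for all genes. The 5 were Zbtb16 at -2.39, Per1 at -1.11, Tat at -1.11, Klf9 at -0.83 and Errfi1 at -0.54. In overlap against intermittent hypoxia, where Mt1 and Mt2 fell, 1 of the 10 fell, Per1 by 0.97 (SE 0.280, adjusted p = 0.0495), and the median was -0.22. Of all tested genes 2.95% were called lower there. Overlap hypoxia against room air gave the list a median of 0.04, with 5 of the 10 positive and 0 called, beside 6.29% of all tested genes. Mt1 and Mt2 stood at -1.31 and -2.14 in that comparison. In overlap against sustained hypoxia the list median was 0.56, with 8 of the 10 positive and 0 called, beside 0.165% of all tested genes. Mt1 and Mt2 stood at 0.02 and -0.15 in this one. Of 20 acute phase genes, 9 were lower and 0 higher in intermittent hypoxia against room air (median -0.65). Of all tested genes 37.1% were called there, 18.9% called higher and only the rest of the 37.1% called lower. In overlap hypoxia 1 was lower, beside 6.29% of all genes called in either direction. In sustained against intermittent hypoxia 5 were higher, beside 38.4% of all tested genes called, 19.5% called lower and only the rest of the 38.4% called higher. The part of hormone level, time of day or inflammation in the metallothionein values was not tested.

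Whole liver holds several cell types, and fewer cells of a type and less RNA per cell cannot be told apart in these libraries. Summed hepatocyte markers ranged over 61600 to 89500 CPM in room air and 58580 to 84520 with intermittent, 82950 to 89780 with sustained and 75380 to 91650 with overlap hypoxia. Of 13 Kupffer cell markers, edgeR called 9 lower with intermittent hypoxia (37.1% of all tested genes called), 9 lower with overlap hypoxia (6.29%) and 0 with sustained hypoxia (0.0481%), each against room air. These shares count calls in either direction. With intermittent hypoxia 18.9% of all tested genes were called higher, and only the rest of the 37.1% were called lower. The markers' medians were -1.11, -1.45 and -0.58, so the 0 does not show that they stayed level in sustained hypoxia. Their sums were 185 to 288 CPM in room air, against 132 to 201 with sustained, 85.4 to 163 with intermittent and 93.3 to 114 with overlap hypoxia. Of 10 sinusoidal endothelial markers, 7 were lower in overlap and 4 in sustained against intermittent hypoxia, the 2 contrasts in which Mt1 and Mt2 fell. Of all tested genes, 2.95% and 19.5% were called lower in these contrasts, and 6.15% and 38.4% in either direction. Endothelial sums were 116 to 140.3 CPM in room air and 129 to 146 with intermittent hypoxia, against 91.8 to 127 with sustained and 55.6 to 102 with overlap hypoxia. No listed marker of these 3 cell types was at 0 throughout a group, and their part in the metallothionein values was not tested.

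Genes most like each member were sought among 9003 genes whose mean level reached 2 CPM, by Pearson's r of log2 CPM over the 16 libraries, given as a description across libraries that share their groups. Nearest to Mt1 was Mt2 (0.942), then the cationic amino acid transporter Slc7a2 (0.790), the stress hormone gene Gdf15 (0.773), Wsb1 (0.771) and Zfp26 (0.770). For Mt2 they were Mt1, Zfp26 (0.832), Plpp1 (0.805), Qpctl (0.796) and Slc7a2 (0.787). Slc30a10 was nearest to the tight junction gene Cldn1 (0.873) and the choline kinase gene Chka (0.854), and Slc39a14 to Usp53 (0.891) and Asxl1 (0.885). Mtf1 was nearest to Kctd5 (0.866) and Chfr (0.785), Slc30a1 to Sept2 (0.738) and Tmcc3 (0.727), and Slc39a10 to Ptpn2 (0.837) and Hinfp (0.787).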

How the data were processed

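RNA of 16 liver libraries, 4 in each of 4 groups, was analysed from the table of expected counts per gene that the authors deposited, in which 49.2% of nonzero values are not whole. Bowtie 1.3.0 and RSEM with GRCm38 are named, per the submitters' processing notes; read length, strand and annotation release are not stated in the sources used here. Groups came from the sample titles. Expected counts were rounded, and symbols, positions and exons were taken from GENCODE M21 by Ensembl identifier (55227 of 55487 matched). Genes were filtered with filterByExpr, which left 14553, scaled by TMM and fitted with edgeR 4.0.16 (R 4.3.3; quasi-likelihood, robust, 1 coefficient a group, all 16 libraries), with Benjamini-Hochberg adjustment over all genes tested and calls under 0.05. Levels are TMM-scaled CPM, and levels of different genes were compared per kilobase of the principal transcript; per kilobase of merged exons the order was the same in each group. Correlations used log2 CPM (prior count 2) and 100000 two-sided resamples.

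The 7 genes were named in all comparisons; from each other list up to 4 members with the lowest p, and by likeness 5 genes for Mt1 and Mt2 and 2 for the others, passing over predicted genes. All called glucocorticoid-induced genes of 1 comparison were named after their values were seen. The genes and lists were chosen with earlier results of these data known. Alternatives were DESeq2 1.42.0, limma-voom (limma 3.58.1), other scalings, filters, covariates and leaving out each library. The edgeR fit was tested on simulated data. Within groups no libraries were copies of each other: chi-square per degree of freedom over 24 pairs within groups lay between 64.4 and 491. That check covers neither pairs across groups nor separate libraries of the same animal. Each fold change rests on 4 libraries a group, with 1337 to 33307 counts a library for Mt1 and 4 to 68 for Slc39a10. Its SE reflects the spread between libraries as well as these counts: it was no smaller for Mt1 (0.463 to 0.478 between 2 groups) than for Slc39a10 (0.422 to 0.425).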

Additional observations from a re-analysis of the deposited data

Results flagged for a closer look

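Of 28 sets of 4 libraries (7 genes in 4 groups), 3 had a library far from the other 3 by Dixon's test, which flags about 1 in 20 such sets by chance. Slc30a1 in overlap hypoxia stood at 16.3 CPM in replicate 3 against 11.5 to 12.0 CPM in the other libraries; replicate 3 is the library with the lowest total. Slc39a14 in intermittent hypoxia stood at 95.4 CPM in replicate 3 against 63.4 to 67.2 CPM, and that library also had the highest ribosomal RNA share, 34.8%. Slc39a14 in room air stood at 50.5 CPM in replicate 1 against 56.1 to 57.1 CPM.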

How the results depend on the processing

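The calls of Mt1 and Mt2 in sustained against intermittent hypoxia held under all alternatives run except the ribosomal RNA covariate, which took the number of called genes from 3 to 0 there, from 2 to 0 in overlap against intermittent hypoxia and from 1 to 0 in intermittent hypoxia against room air. In intermittent hypoxia against room air (1 called) DESeq2 called 2, limma-voom 0, the unfiltered edgeR fit 0 and the fit of these groups alone 2; with the length offset it was 1, a different gene (Slc30a10, -0.91, in place of Slc39a14). In overlap against intermittent hypoxia (2 called) limma-voom called 1, the unfiltered fit 1 and the fit of these groups alone 0. Against room air (0 called) DESeq2 called 2 in overlap hypoxia and 1 in sustained hypoxia, and limma-voom 1 in overlap hypoxia. Fits without 1 library called 0 to 2 genes in intermittent hypoxia against room air, 0 to 2 in overlap against intermittent hypoxia, 0 to 1 in overlap hypoxia against room air and 3 in each fit of sustained against intermittent hypoxia. Apart from the construction of these fits, the cause was not tested.

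Directions changed in values near 0 and in Slc39a14. Mtf1 was at 0.0669 with upper-quartile scaling and 0.0047 with the compared groups alone in intermittent hypoxia, and at 0.0208 with the length offset in sustained hypoxia; Slc39a10 in sustained hypoxia was at 0.028 with limma-voom. With the covariate Slc39a14, called at 0.41 in intermittent hypoxia against room air and at -0.63 in sustained against intermittent hypoxia, was at -0.33 and -0.14 in intermittent and overlap hypoxia against room air and at 0.19 and 0.21 in overlap and sustained against intermittent hypoxia, and Mt1 at -0.0115 in overlap against sustained hypoxia. With the length offset Slc39a14 was at -0.12 in overlap hypoxia and Mt2 at 0.13 in overlap against sustained hypoxia. Leaving out 1 library gave ranges of -0.28 to 0.52 (Mt1) and -0.78 to 0.16 (Mt2) in overlap against sustained hypoxia, -0.17 to 0.11 (Mtf1, intermittent hypoxia), -0.10 to 0.0199 (Mtf1, sustained hypoxia), -0.18 to 0.29 (Slc39a10, sustained hypoxia) and -0.092 to 0.20 (Slc39a14, overlap hypoxia). Upper-quartile scaling moved the all-gene median to 0.12 for intermittent hypoxia against room air; for sustained against intermittent hypoxia it became -0.12.

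With the replicate block the counts of called genes were 0, 1 and 0 in sustained, intermittent and overlap hypoxia against room air, 2 in overlap and 3 in sustained against intermittent hypoxia, the same numbers as without it, and Mt1 and Mt2 in overlap against intermittent hypoxia stood at -1.88 and -2.62 (edgeR adjusted p = 0.0489 and 0.0488). The replicate numbers are not shown to pair libraries: deviations of libraries with the same number correlated between -0.103 and 0.183, with 4 of 24 pairs over 0.1.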

Other observations

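Gm45774, the RNA antisense to Mt2, stood at 3.20 ± 2.07 CPM in intermittent hypoxia against 0.536 ± 0.224 in room air, 0.193 ± 0.102 in sustained and 0.737 ± 0.565 in overlap hypoxia (SD, n = 4 each). Its lowest intermittent hypoxia library, at 1.49 CPM, was above the highest of the other groups, at 1.29 CPM. Of all tested genes, 17.4% had all intermittent hypoxia libraries above room air. All sustained and all overlap hypoxia libraries lay below intermittent ones in 17.7% and 5.68% of tested genes. Gm2061, which lies across from the start of Slc30a10, stood at 0.288 to 0.545 CPM in room air and 0.0532 to 0.101 CPM in sustained hypoxia. It stood at 0 to 0.19 CPM in intermittent and 0 to 0.341 CPM in overlap hypoxia, all low levels. All sustained hypoxia libraries lay below room air in 4.32% of all tested genes. Reads of these RNAs and of the genes across from them cannot be told apart where strand was not used. Summed erythroid markers were 418 to 2078 CPM in sustained hypoxia against 253 to 712 CPM in room air. The 6 tested members had a median log2 fold change of 1.73, and 0 were called, beside 0.0481% of all tested genes.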
